A study of Cucumis sativus with 12 samples.

Results

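Leaves of chilled cucumber (Cucumis sativus) seedlings were compared with leaves of unchilled seedlings, over all durations of cold at once. The comparison set 9 chilled libraries, 3 each after 3, 12 and 24 h of cold, against 3 libraries at 0 h, and each duration had the same weight. Of the 24317 genes in the table, 16432 were measured well enough to be tested. Among these, 2853 genes had their 9 cold values all above the 3 values at 0 h, and 3599 had them all below. These 6452 genes, called kept genes here because the change was kept at every duration, are the main subject of what follows.

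Messenger RNA was sequenced in fully grown leaves 2 and 3 of seedlings with 3 true leaves. Every plant had received a spray of COS (chitosan oligosaccharide, a short-chain product of chitosan) at 50 mg/L and had then stood for 24 h at 28 °C by day and 18 °C by night. The chilled groups were then held at 12 °C by day and 6 °C by night for 3, 12 or 24 h, with 12 h of light and 12 h of dark, and the 0 h group was taken without cold. The study's groups sprayed with water are not analysed here, and every comparison is between COS-sprayed leaves. Whether the 3 libraries of a group stem from different plants is not stated, so the p-values reflect only how much these libraries vary, some of which may be technical. Time since the spray grew with time in the cold, and no clock hour of sampling is stated, so neither can be told apart from cold.

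Cucumber comes from warm regions and its leaves are injured by chilling above freezing. In plants, a fall in temperature stiffens membranes, slows enzymes and lets calcium into the cytosol, while light goes on being absorbed. Known answers to cold include transcription factors of the CBF/DREB, ERF, NAC, WRKY and ZAT families, protein chaperones, enzymes that remove reactive oxygen and toxic conjugates, and sugars that protect membranes. Growth, auxin transport and the synthesis of cell walls are commonly reduced at the same time, and the circadian clock shifts which genes are read at which hour.

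Totals ranged from 62.7 to 81.6 M units of estimated count in a library (M stands for mega). Low values were spaced by about 3.72 units, for a reason that is not stated. If 1 such step is 1 fragment, the libraries held an estimated 16.9 to 21.9 M fragments. The main fit used the undivided units. Log2 expression correlated across the tested genes at 0.9658 to 0.9837 among the 24 h libraries and at 0.9889 or above within the other groups. Between chilled and 0 h libraries the correlation was 0.7816 to 0.9176, and genes are not independent replicates. The leaf label fits the mesophyll markers, whose summed level was 28100 to 58100 FPKM in the cold libraries and 32300 to 34100 FPKM at 0 h (FPKM, fragments per kilobase of transcript scaled to the depth of the library). None of the 23 mesophyll markers was below 1 FPKM throughout. Phloem markers summed to 450 to 1510 FPKM in the cold and 483 to 730 FPKM at 0 h, epidermis markers to 161 to 318 and 276 to 370 FPKM, guard cell markers to 53.8 to 93.8 and 54.2 to 63.1 FPKM, xylem markers to 0.768 to 2.15 and 3.72 to 4.64 FPKM, and root markers to 10.4 to 22.4 and 11.1 to 13.2 FPKM. Of these lists, 7 of 27 phloem, 5 of 20 epidermis, 4 of 14 guard cell, 0 of 2 xylem and 3 of 7 root markers stayed below 1 FPKM in every library. In whole leaves, fewer cells of a type and less RNA per cell cannot be told apart, and the part of these shifts in the results below was not tested.

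Most of the tested genes differed between chilled and unchilled leaves. Over all cold against 0 h, 5792 genes (35.2%) were called higher and 5904 (35.9%) lower, with edgeR's quasi-likelihood test at a Benjamini-Hochberg adjusted p below 0.05. The genes called higher or lower make up 71.2% of those tested. The median change over all tested genes was -0.005 on the log2 scale with the TMM scaling of the main fit. It was 0.007 with median-of-ratios scaling and -0.026 with library totals only, so it moves with the scaling. Kept genes made up 17.4% of the tested genes on the higher side and 21.9% on the lower side. Since the rule that chose them used the same values, all counts, fold changes and separations of these genes against 0 h are descriptions and carry no test. Of the 11696 called genes, 6421 (54.9%) were kept, and 31 genes were kept without being called, all of them lower. Called at each of the 3 durations taken alone were 2732 genes higher (16.6%) and 2774 genes lower (16.9%), against the same 0 h libraries; 2534 of these were kept higher and 2753 kept lower.

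The kept genes carried a large part of the leaf's message. Genes kept higher held 19.5% to 20% of all FPKM in the 3 h libraries, 25.9% to 26.2% at 12 h and 28.4% to 31.0% at 24 h, against 10.0% to 10.1% at 0 h. Genes kept lower held 24.6% to 25.3% at 3 h, 19.9% to 20.4% at 12 h and 17.2% to 19.4% at 24 h, against 39.2% to 39.5% at 0 h. The rule fixes the direction of these shares, but not their size. By level, the typical gene kept higher was weakly expressed at the start, with a median of 6.28 FPKM at 0 h, 12.1 at 3 h, 15.3 at 12 h and 19.0 FPKM at 24 h. The typical gene kept lower had a median of 18.5 FPKM at 0 h, 11.3 at 3 h, 9.01 at 12 h and 8.15 FPKM at 24 h, while the median over all tested genes stayed between 9.14 and 9.46 FPKM.

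**Figure D1:**
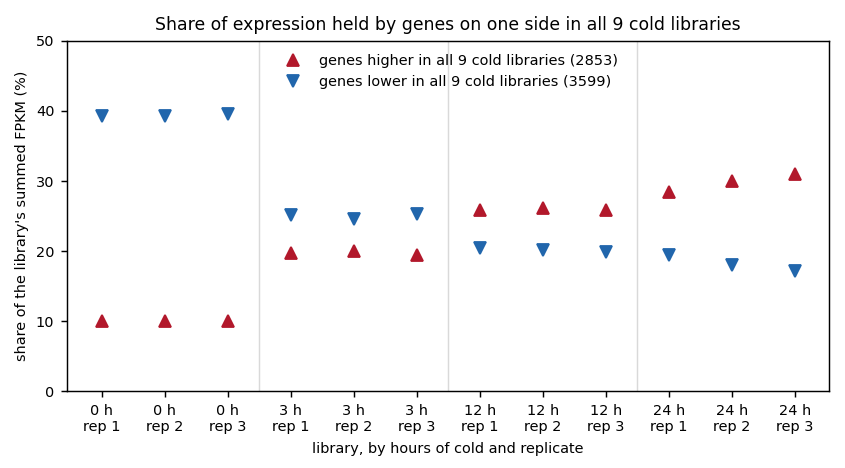
Share of each library's summed FPKM (%, vertical axis) held by the 2853 genes higher and the 3599 genes lower in all 9 cold libraries, for the 12 libraries in order of hours of cold. The share of the first set lies between 28.4% and 31.0% at 24 h, against 10.0% to 10.1% at 0 h, and that of the second between 17.2% and 19.4% at 24 h, against 39.2% to 39.5% at 0 h.

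A size cut shows how deep the changes ran. On the scale of log2(FPKM + 1), 540 kept genes were at least 2-fold higher and 510 at least 2-fold lower at every duration, and 116 and 44 of them were at least 4-fold higher and lower. Median log2 fold changes of the genes kept higher were 0.83 at 3 h, 1.22 at 12 h and 1.36 at 24 h, and those of the genes kept lower were -0.69, -0.92 and -1.06. No count was found in any 0 h library for 17 of the genes kept higher. Among the kept genes, 847 of those higher and 1170 of those lower have no informative description, so that part of the pattern cannot be read from names.

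The 12 rises that were largest at their weakest duration, among described genes of at least 5 FPKM in every cold group, held genes of detoxification, sulfate reduction, signalling and protein folding, among others. First came a cytochrome P450 CYP81E8-like gene (CsaV3_6G043650, chromosome 6, 25742453 to 25744708 in the deposited table), of a family of oxygenases that modify small molecules. It was at 26.3, 34.4 and 22.6 FPKM at 3 h, 42.6, 17.9 and 22.5 FPKM at 12 h and 58.9, 69.6 and 63.8 FPKM at 24 h, against 1.05, 0.725 and 1.24 FPKM at 0 h. The lowest cold library was 14.4 times the highest 0 h library, and the fitted log2 fold change was 5.21 (SE 0.32). Another P450, CYP72A219-like (CsaV3_4G032670), was at 109 to 117 FPKM at 3 h, 372 to 381 FPKM at 12 h and 200 to 331 FPKM at 24 h, against 8.90 to 11.2 FPKM at 0 h. Both genes stood far outside the 0 h range at the first time point, and the second was highest at 12 h.

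Single genes of sulfate reduction and of glutathione use were also among the 12. The 5'-adenylylsulfate reductase 1 gene (CsaV3_1G010690, chromosome 1, 6638465 to 6641941), whose enzyme reduces activated sulfate on the way to cysteine and glutathione, was at 17.8 to 22.0 FPKM at 3 h, 59.6 to 64.4 FPKM at 12 h and 28.3 to 35.5 FPKM at 24 h, against 1.25, 1.40 and 1.33 FPKM at 0 h. Its log2 fold change was 4.71 (SE 0.11). A glutathione S-transferase (CsaV3_4G025750), which joins glutathione to toxic molecules, was at 9.66 to 18.1 FPKM at 3 h, 49.1 to 65.3 FPKM at 12 h and 46.6 to 100.4 FPKM at 24 h, against 0.747 to 0.943 FPKM at 0 h. The ABC transporter C family member 3-like gene (CsaV3_7G018610), of a group of pumps that move such conjugates into the vacuole, was at 60.4, 78.5 and 177 FPKM as the lowest, median and highest of the 9 cold libraries, against 6.04, 7.00 and 7.58 FPKM at 0 h. The sulfate reductase gene was highest at 12 h, and the transporter gene at 24 h.

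Regulators and chaperones made up most of the other large rises. The transcription factor WRKY46 (CsaV3_3G008170), of a family that acts in defence and drought, ranged from 157 to 574 FPKM over the cold libraries with a median of 240 FPKM, against 12.3, 17.0 and 14.7 FPKM at 0 h. NAC domain-containing protein 8-like (CsaV3_6G050450) was at 7.73 to 8.64 FPKM at 3 h and 7.78 to 14.1 FPKM at 12 h, then 84.5, 84.3 and 43.8 FPKM at 24 h, against 0.485, 0.0914 and 0.156 FPKM at 0 h. CML44 (CsaV3_6G034010), a calmodulin-like calcium sensor, was at 36.3 to 46.5 FPKM at 3 h and 230 to 315 FPKM at 24 h, against 3.04 to 6.51 FPKM at 0 h. The step from 12 to 24 h was itself called for all 3 of these genes, with log2 differences of 1.54, 2.71 and 1.99. An Hsp70 chaperone gene (CsaV3_4G024840), whose protein holds unfolded proteins in solution, was at 488, 530 and 478 FPKM at 3 h, 1396, 1459 and 1463 FPKM at 12 h and 2108, 2160 and 2563 FPKM at 24 h, against 74.1, 58.9 and 61.6 FPKM at 0 h. It climbed at each step, with called log2 differences of 1.58 between 12 and 3 h and 0.67 between 24 and 12 h.

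The remaining rises of this group were a protein-tagging gene, a repair helicase and a wound-induced protein. Polyubiquitin-like (CsaV3_1G011020), which supplies the ubiquitin that marks proteins for breakdown, was at 86.7, 138 and 346 FPKM as lowest, median and highest cold value, against 9.53 to 12.8 FPKM at 0 h. MCM8 (CsaV3_3G035520), a helicase of DNA break repair, was at 21.1 to 48.2 FPKM in the cold, against 2.21 to 2.55 FPKM at 0 h. Both of these genes overlap a gene on the opposite strand, and since the strand setting of the counting is not given, their reads cannot be told apart from those of the partner. A gene with a WI12 domain (CsaV3_6G002080), named for a wound-induced protein, was at 210 to 243 FPKM at 3 h, 447 to 533 FPKM at 12 h and 946 to 1156 FPKM at 24 h, against 25.5 to 34.3 FPKM at 0 h.

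**Figure D2:**
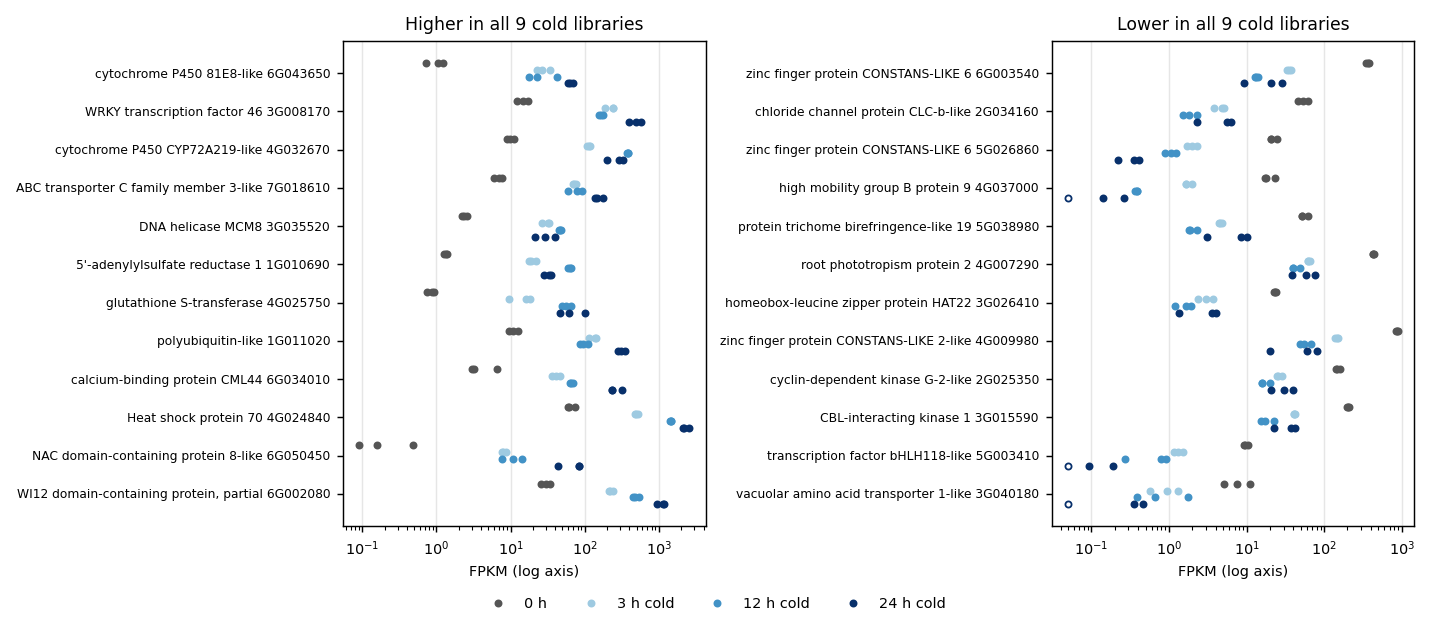
FPKM on a log axis of the 12 largest rises (left) and the 12 largest falls (right) kept in all 9 cold libraries, each point 1 library, coloured by hours of cold; open circles at the left edge stand for a value of 0. In each row the 9 cold points lie apart from the 3 points at 0 h, for heat shock protein 70 with the cold points from 478 to 2563 FPKM and those at 0 h from 58.9 to 74.1 FPKM.

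Among the 12 largest falls, 4 were day-length or light-signalling genes, at ranks 1, 3, 6 and 8. CONSTANS-LIKE 6 (CsaV3_6G003540, chromosome 6, 2826773 to 2829268), of a family of B-box zinc finger proteins that read day length, was at 35.4, 33.0 and 37.3 FPKM at 3 h, 13.3, 13.9 and 13.0 FPKM at 12 h and 29.0, 20.4 and 9.23 FPKM at 24 h, against 376, 348 and 366 FPKM at 0 h. Its log2 fold change was -4.08 (SE 0.20). A second CONSTANS-LIKE 6 gene (CsaV3_5G026860) was at 0.220, 1.07 and 2.31 FPKM as lowest, median and highest cold value, against 20.8 to 24.4 FPKM at 0 h, and CONSTANS-LIKE 2-like (CsaV3_4G009980) was at 20.2, 68.2 and 152 FPKM, against 852 to 896 FPKM at 0 h. Root phototropism protein 2 (CsaV3_4G007290), which acts with the blue-light receptor phototropin in Arabidopsis, was at 38.8, 57.9 and 77.3 FPKM in the cold, against 427 to 438 FPKM at 0 h. In each of these 4 genes the lowest 0 h value was at least 5.52 times the highest cold value, and the 3 h libraries were already far below 0 h.

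Chromatin, wall and transport genes stood at ranks 2, 4, 5 and 12. High mobility group B protein 9 (CsaV3_4G037000), a DNA-bending chromatin protein, was at 1.64 to 1.98 FPKM at 3 h, 0.364 to 0.387 FPKM at 12 h and 0.262, 0 and 0.141 FPKM at 24 h, against 23.2, 17.2 and 17.6 FPKM at 0 h. Trichome birefringence-like 19 (CsaV3_5G038980), of a family that adds acetyl groups to wall polymers, was at 1.83 to 10.1 FPKM in the cold, against 52.3 to 62.0 FPKM at 0 h. The transporters of the group were a chloride channel CLC-b-like gene (CsaV3_2G034160), whose Arabidopsis relative moves nitrate across the vacuole membrane, and a vacuolar amino acid transporter 1-like gene (CsaV3_3G040180), with log2 fold changes of -3.93 (SE 0.21) and -3.60 (SE 0.50). The vacuolar amino acid transporter was the weakest of the 12, at 0 to 1.77 FPKM in the cold, against 5.08, 7.58 and 11.2 FPKM at 0 h.

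Kinases and transcription factors made up the rest. CIPK1 (CsaV3_3G015590), a kinase that works with calcineurin B-like calcium sensors, was at 15.4, 37.2 and 42.7 FPKM as lowest, median and highest cold value, against 195 to 208 FPKM at 0 h, and cyclin-dependent kinase G-2-like (CsaV3_2G025350) was at 15.7, 24.8 and 39.2 FPKM, against 142 to 159 FPKM at 0 h. Homeobox-leucine zipper protein HAT22 (CsaV3_3G026410) and bHLH118-like (CsaV3_5G003410) had log2 fold changes of -3.23 (SE 0.23) and -4.42 (SE 0.39). The chloride channel and CIPK1 genes overlap a gene on the opposite strand and are uncertain for that reason.

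Being kept on one side of 0 h did not mean standing still. Over all tested genes, 12871 (78.3%) differed among 3, 12 and 24 h in an F test (edgeR quasi-likelihood, adjusted p below 0.05) that compares only the cold groups, although the 0 h libraries enter its estimate of the spread. Of the genes kept higher 2335 (81.8%) did so, and of those kept lower 2625 (72.9%), shares near that of all genes. Fitted on the 9 cold libraries alone, the test called 4716 kept genes, against 4960 in the fit of all 12. The rule leaves out genes that came back to the 0 h range, so the balance of steps that follows describes the kept genes and is no result about them. From 3 to 12 h, 1398 genes kept higher (49.0%) rose further and 360 (12.6%) came back toward 0 h, and from 12 to 24 h 1054 (36.9%) rose further and 477 (16.7%) came back. For genes kept lower, 1404 (39%) fell further and 362 (10.1%) came back from 3 to 12 h, and 1180 (32.8%) fell further and 585 (16.3%) came back from 12 to 24 h. Only a minority moved further at both steps, 400 of the genes kept higher and 475 of those kept lower. The largest of the 3 changes was that at 24 h in 53.9% of the genes kept higher and 55.1% of those kept lower, at 12 h in 30.6% and 31.6%, and at 3 h in 15.5% and 13.2%.

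**Figure D3:**
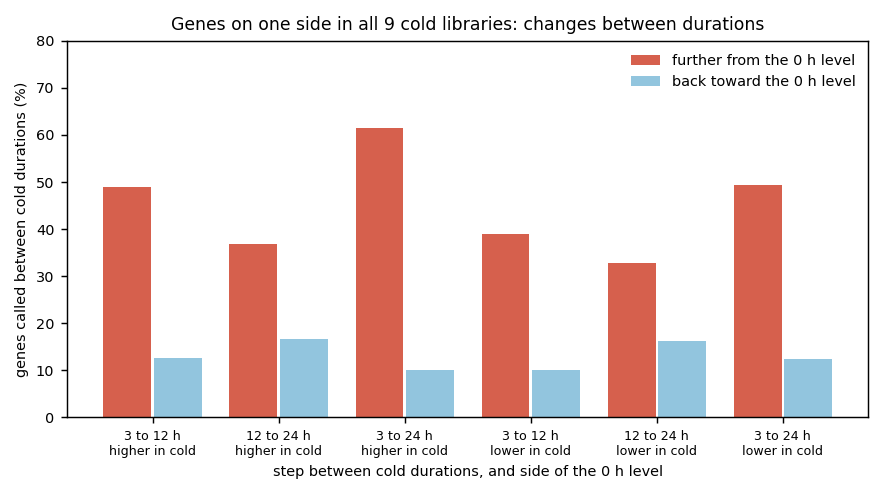
Percent of the genes kept higher (left 3 pairs of bars) and kept lower (right 3 pairs) that were called between 2 cold durations, further from the 0 h level or back toward it. From 3 to 24 h, 61.4% of the genes kept higher moved further and 10.1% came back, and 49.3% and 12.5% of the genes kept lower.

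In a smaller set the durations were not told apart by the test. No difference among the 3 durations was called for 518 genes kept higher and 974 kept lower, which does not show that they were equal, and 72 and 141 of these were at least 2-fold changed at every duration. Of the genes at least 2-fold changed throughout, the steadiest rises were in metabolism, RNA modification, signalling and transport. Nudix hydrolase 16 (CsaV3_6G035800), of a family that cleaves damaged or signalling nucleotides, was at 9.27, 10.1 and 11.2 FPKM as lowest, median and highest cold value, against 3.45 to 5.19 FPKM at 0 h. The kinase gene shkC-like (CsaV3_7G006000) averaged 47.5 ± 3.22 FPKM at 3 h, 46 ± 6.73 at 12 h and 47 ± 3.45 FPKM at 24 h, against 13.4 ± 1.26 FPKM at 0 h (SD, n = 3 each). The others were a tRNA-dihydrouridine synthase (CsaV3_2G035640), which modifies transfer RNA, methylenetetrahydrofolate reductase 2 (CsaV3_2G011840), an enzyme that feeds methyl groups to methionine, and equilibrative nucleotide transporter 8 (CsaV3_1G030300, overlapping an opposite-strand gene). Their log2 fold changes were 1.19 (SE 0.08), 1.21 (SE 0.09) and 2.07 (SE 0.13).

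The steadiest falls came from several cell functions. Poly(ADP-ribose) glycohydrolase 1-like (CsaV3_2G011270), which removes ADP-ribose chains from proteins after DNA damage, was at 3.65, 4.60 and 5.17 FPKM as lowest, median and highest cold value, against 11.4 to 11.9 FPKM at 0 h. RABA5d (CsaV3_4G003850), a small GTPase of vesicle traffic, was at 33.5, 42.2 and 44.1 FPKM, against 90.4 to 97.3 FPKM at 0 h. Glucomannan 4-beta-mannosyltransferase 2 (CsaV3_6G014660), which builds a wall polymer, was at 41.3, 61.6 and 82.5 FPKM, against 134 to 186 FPKM at 0 h, and the trihelix factor ASIL1-like (CsaV3_UNG085670) was at 18.6 to 21.7 FPKM, against 41.3 to 55.4 FPKM at 0 h. A thioredoxin domain-containing protein 9 gene (CsaV3_2G035050) belongs to the same group but overlaps another gene on its own strand. These 10 genes were picked for steadiness, so their edgeR adjusted p values among the durations, 0.225 to 0.999, only describe them.

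**Figure D4:**
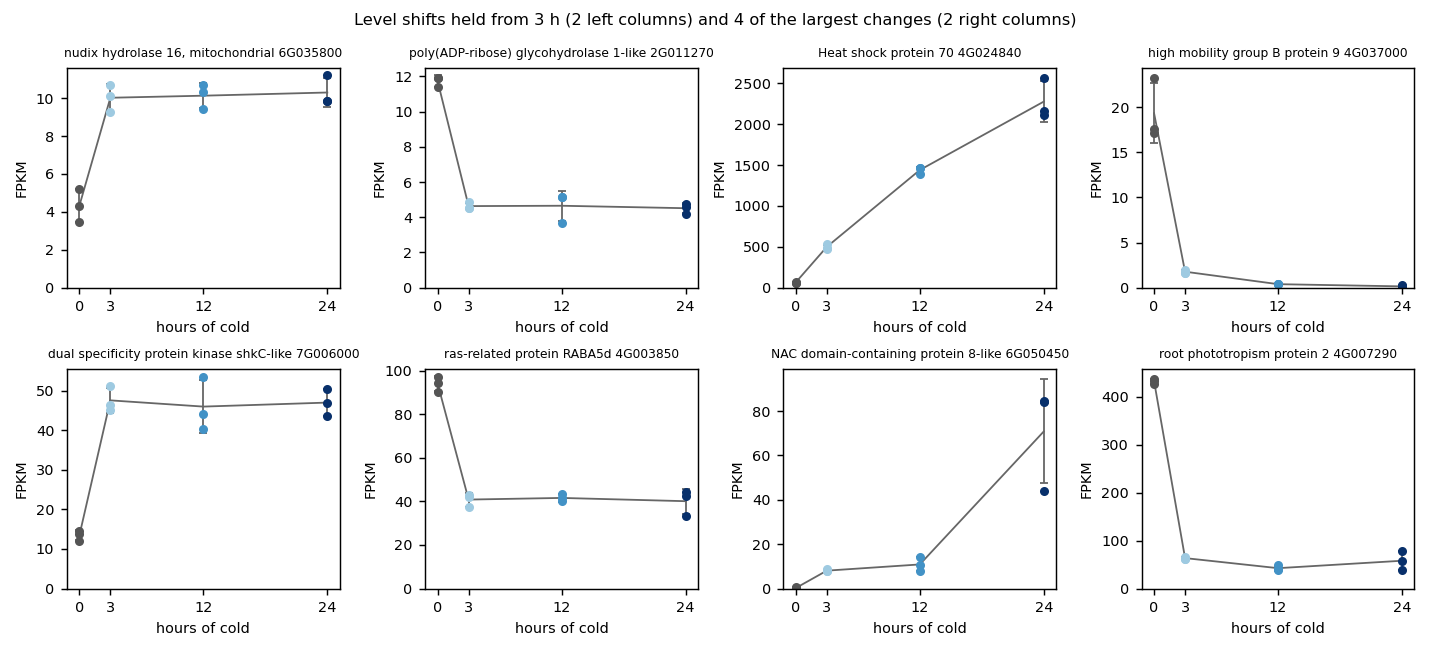
FPKM against hours of cold for 4 genes with a steady shift (left columns) and 4 of the largest changes (right columns); points are libraries, lines join group means and bars are SDs of 3 libraries. The steady genes sit at 1 level from 3 h on, such as RABA5d at 33.5 to 44.1 FPKM in the cold and 90.4 to 97.3 FPKM at 0 h, while Hsp70 climbs at each step to 2108 to 2563 FPKM at 24 h.

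Chaperones had the largest share of members kept higher among the 44 lists that are not cell type markers. Of 59 genes for heat shock proteins or heat stress factors, 40 were called higher and 9 lower. These are 67.8% and 15.3%, against 35.2% and 35.9% of all tested genes. Kept higher were 27 (45.8%, against 17.4% of all genes) and kept lower 1 (1.69%, against 21.9%). The median log2 fold change of the list was 1.02. By kind, 7 of 12 Hsp70 genes, 5 of 6 Hsp90 genes, 5 of 18 small heat shock protein genes and 8 of 17 heat stress factor genes were kept higher. These kinds, and the other families counted inside lists below, were picked after their values were seen. Heat shock cognate protein 80-like (CsaV3_1G038690), an Hsp90 that matures signalling proteins, averaged 26.0 FPKM at 0 h, 136 at 3 h, 333 at 12 h and 414 FPKM at 24 h. Heat stress factor B-2b-like (CsaV3_3G016950) averaged 10.1, 51.3, 47.3 and 257 FPKM at the same times, and a 17.3 kDa class I small heat shock protein (CsaV3_1G035830) 8.68, 21.7, 133 and 252 FPKM. The exception was heat stress factor C-1 (CsaV3_2G002270), which averaged 505 FPKM at 0 h and 91.2, 139 and 21.0 FPKM after 3, 12 and 24 h. DnaJ co-chaperones, which hand clients to Hsp70, were mixed: of 51, 15 were kept higher (29.4%) and 11 lower (21.6%). The B6-like member (CsaV3_5G028590) was at 1.4 to 1.75 FPKM at 3 h, 390 to 433 FPKM at 12 h and 450 to 636 FPKM at 24 h, against 0.152, 0.25 and 0 FPKM at 0 h. Its level at 0 h rests on very few fragments, so the size of its fold is loose. On the other side, a C21-like member (CsaV3_7G029620) had a log2 fold change of -3.07 (SE 0.21).

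Among 7 lists of stress-linked genes, 6 of them transcription factor families, members kept higher were more numerous than members kept lower in 5. Over all tested genes, 17.4% were kept higher and 21.9% lower. For AP2/ERF factors 24 of 70 were kept higher (34.3%) and 6 lower (8.57%). For NAC factors these were 12 of 36 (33.3%) and 1 (2.78%). ZAT and C2H2 zinc finger genes had 7 of 22 (31.8%) and 1 (4.55%). CBF/DREB and cold-regulated genes had 7 of 19 (36.8%) and 2 (10.5%). That list is not a transcription factor family, and a low-temperature-induced cysteine proteinase (CsaV3_4G034650) is among its members kept higher. WRKY factors had 12 of 39 (30.8%) and 9 (23.1%, near the share of all genes). MYB factors, with 8 of 55 higher and 11 lower (20% lower), and bHLH factors, with 8 of 63 and 14 (22.2% lower), were kept lower near the 21.9% of all genes, and of the MYB factors 23 were called higher and 19 lower. Of 4 DREB2 genes tested, 3 were kept higher and none lower, and DREB2C (CsaV3_6G002010), an activator of dehydration- and heat-responsive genes in Arabidopsis, was at 23.6, 31.3 and 33.2 FPKM as lowest, median and highest cold value, against 4.81 to 5.67 FPKM at 0 h. ZAT10-like (CsaV3_2G026210), a repressor of stress genes, was at 46.8, 133 and 371 FPKM, against 10.8 to 12.2 FPKM at 0 h. NAC domain-containing protein 2 (CsaV3_2G019740) was at 191, 292 and 870 FPKM, against 30.8 to 34.2 FPKM at 0 h, and MYB108-like (CsaV3_1G006660) at 45.8, 53.3 and 103 FPKM, against 4.98 to 9.81 FPKM at 0 h.

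ERF053 (CsaV3_7G004340) had the widest gap between groups of all genes named by rank, at 4.09 to 5.90 FPKM at 3 h, 30.8 to 32.8 FPKM at 12 h and 16.5 to 29.9 FPKM at 24 h, against 0.0225, 0.0647 and 0.149 FPKM at 0 h. Its level at 0 h rests on few fragments, so the size of the fold is loose. ERF098-like (CsaV3_2G012880) was listed at 0 in all 3 libraries at 0 h. It ranged from 0.514 to 27 FPKM in the cold, with a median of 1.55 FPKM, so its highest value lies far above the typical cold library. Ethylene-responsive factor 6 (CsaV3_3G002470) averaged 4.75 FPKM at 0 h, 22.6 at 3 h, 96.3 at 12 h and 360 FPKM at 24 h.

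The B-box family was kept lower in more than its background share, and the clock genes were divided. Of 19 CONSTANS-like and B-box genes, 12 were called lower and 5 higher, and 10 were kept lower (52.6%, against 21.9% of all genes) and 3 higher. Besides the 3 named above, CONSTANS-LIKE 9 (CsaV3_5G034710) was at 2.58, 6.51 and 20.6 FPKM as lowest, median and highest cold value, against 52.8 to 67.6 FPKM at 0 h, and CONSTANS-LIKE 16 (CsaV3_1G003800) at 7.76, 14.7 and 47.9 FPKM, against 116 to 122 FPKM at 0 h. B-box zinc finger protein 20 (CsaV3_7G000270) went against them, with a log2 fold change of 2.52 (SE 0.20). Of 18 clock genes, 5 were kept higher (27.8%) and 4 lower (22.2%, near the share of all genes). The pseudo-response regulator APRR7 (CsaV3_4G024430) was at 36.7 to 43.9 FPKM at 3 h, 174 to 177 FPKM at 12 h and 130 to 190 FPKM at 24 h, against 5.49 to 6.06 FPKM at 0 h. The GIGANTEA genes split: a GIGANTEA-like gene (CsaV3_6G005020) averaged 4.26 FPKM at 0 h and 23.2, 285 and 291 FPKM after 3, 12 and 24 h, while the other (CsaV3_7G024490), which overlaps another gene on its own strand, had a log2 fold change of -1.09. All 9 kept clock genes differed among the cold durations, against 78.3% of all tested genes, and their clock hour of sampling is not known.

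**Figure D5:**
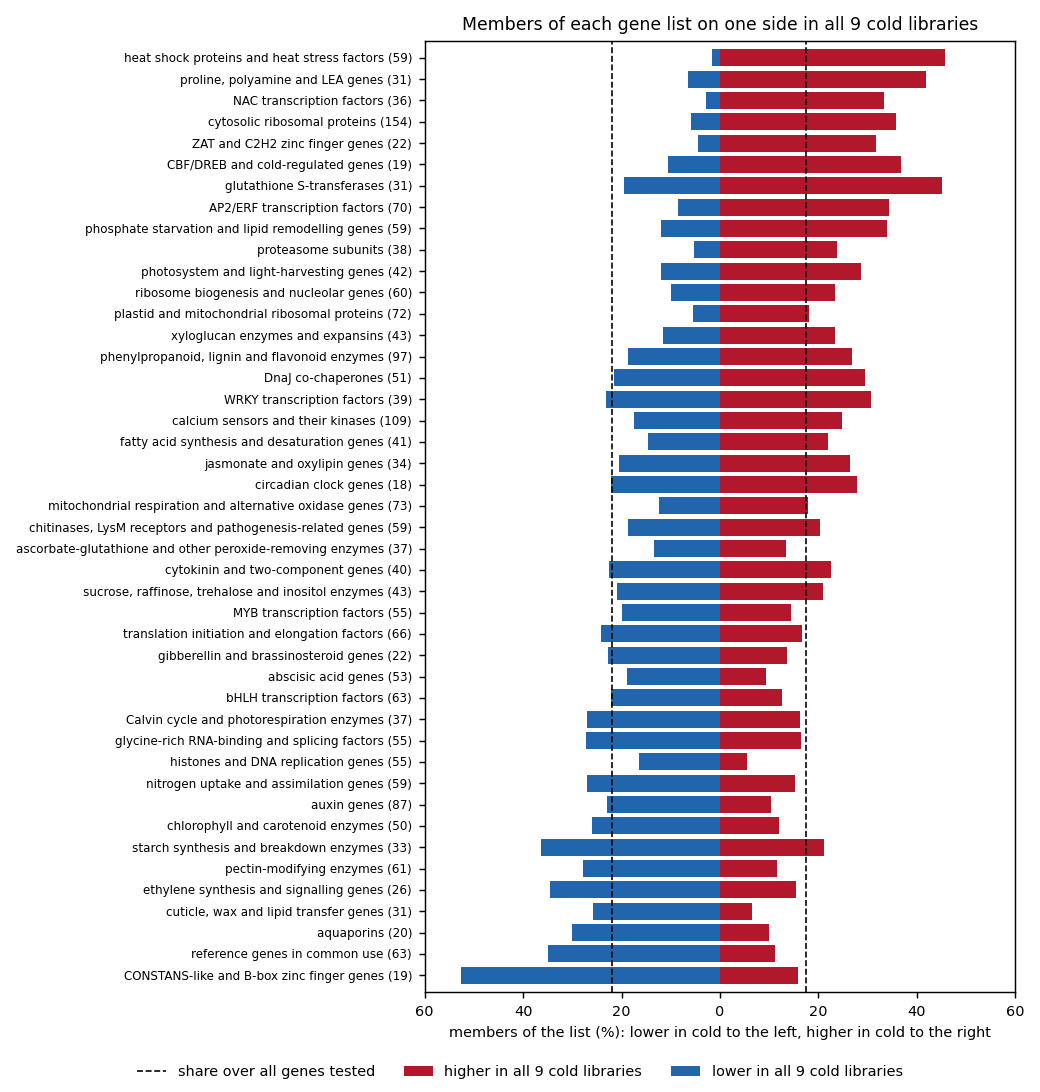
Percent of the tested members of 44 gene lists that lay lower (left) or higher (right) in all 9 cold libraries, with the number of tested members in brackets and dashed lines at the shares over all tested genes, 21.9% and 17.4%. Heat shock proteins and heat stress factors reach 45.8% on the higher side and CONSTANS-like and B-box genes 52.6% on the lower side.

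Many genes of glutathione S-transferases, enzymes of detoxification, were kept higher. Of 31 members, 16 were called higher and 8 lower, with a median log2 fold change of 0.18. Kept higher were 14 (45.2%, against 17.4% of all genes) and kept lower 6 (19.4%, against 21.9%). Of the members, 11 were at least 2-fold higher at every duration, and none was at least 2-fold lower. A cluster on chromosome 4 holds 5 of these 11 (CsaV3_4G025680, CsaV3_4G025690, CsaV3_4G025750, CsaV3_4G025760 and CsaV3_4G025770), with log2 fold changes of 5.25, 2.68, 5.52, 3.81 and 5.5. Near-identical neighbours can share reads, so the division between these 5 is uncertain. On chromosome 3, glutathione S-transferase CsaV3_3G011460 averaged 27.9 FPKM at 0 h, 97.7 at 3 h, 236 at 12 h and 443 FPKM at 24 h. Of 37 enzymes that remove peroxides, such as ascorbate peroxidase and catalase, 16 were called higher and 9 lower. These are 43.2% and 24.3%, against 35.2% and 35.9% of all tested genes. Kept higher were 5 and kept lower 5, at 13.5% each, below both shares of all genes. In the same list monodehydroascorbate reductase (CsaV3_5G027310), which regenerates ascorbate, was at 56.2, 67.8 and 126 FPKM as lowest, median and highest cold value, against 188 to 197 FPKM at 0 h.

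Of 109 calcium sensors and their kinases, 27 were kept higher (24.8%, against 17.4% of all genes) and 19 lower (17.4%, against 21.9%), and among calmodulin-like proteins 11 of 31 higher and 2 lower. CML27 (CsaV3_1G004290) averaged 33.9 FPKM at 0 h, 72.9 at 3 h, 164 at 12 h and 434 FPKM at 24 h, and a plasma-membrane calcium ATPase 2 gene (CsaV3_6G044140), which pumps calcium out of the cell, 2.63, 11.8, 10.8 and 83.1 FPKM. Of the 46 kept members, 29 moved further between 12 and 24 h. Over all genes, 36.9% of those kept higher and 32.8% of those kept lower did so.

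Most genes for the entry to phenylpropanoid synthesis were kept higher, while later branches were divided. Of 97 phenylpropanoid, lignin and flavonoid genes, 26 were kept higher (26.8%, against 17.4% of all genes) and 18 lower (18.6%, against 21.9%). Among 15 phenylalanine ammonia-lyase genes, whose enzyme starts the pathway, 10 were kept higher and none lower. Over all cold, 10 of the 15 were called higher and 3 lower, and their median log2 fold change was 2.66. A tandem run of 5 on chromosome 4 (CsaV3_4G002290 to CsaV3_4G002330) was kept higher throughout, and reads may be shared between its copies. Phenylalanine ammonia-lyase-like CsaV3_6G014060, apart from that run, was at 10.9, 19.1 and 29.9 FPKM as lowest, median and highest cold value, against 1.23 to 1.98 FPKM at 0 h. Chalcone synthase 2 (CsaV3_3G027830), the first enzyme of flavonoids, averaged 32.3 FPKM at 0 h and 225, 226 and 158 FPKM after 3, 12 and 24 h. On the lower side, caffeoylshikimate esterase (CsaV3_2G030770) and caffeic acid 3-O-methyltransferase (CsaV3_3G004020), both of lignin synthesis, had log2 fold changes of -1.86 (SE 0.12) and -1.47 (SE 0.11).

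In photosynthesis, antenna genes made up most of the members kept higher. Of 42 photosystem and light-harvesting genes, 12 were kept higher (28.6%, against 17.4% of all genes) and 5 lower (11.9%, against 21.9%). Of the 12, 11 encode chlorophyll a-b binding proteins, the light-harvesting antenna. The most abundant antenna gene, LHCII type 1-like (CsaV3_6G013800), was at 1705 to 1850 FPKM at 3 h, 3607 to 3888 FPKM at 12 h and 1931 to 2148 FPKM at 24 h, against 650 to 702 FPKM at 0 h. Of the 17 kept genes of this list, 11 moved further from 0 h between 3 and 12 h, and 11 came back between 12 and 24 h. For LHCII type I (CsaV3_6G051530), the log2 difference was 1.92 between 12 and 3 h and -1.30 between 24 and 12 h, both called. The mesophyll markers, whose list holds these genes, had 11 of 23 members kept higher and 2 lower, while their summed level given above ranged in the cold from below to above that at 0 h, and their part in the antenna result was not tested. Among the Calvin cycle and photorespiration genes 6 of 37 were kept higher (16.2%, near the share of all genes) and 10 lower (27%). Rubisco activase 2 (CsaV3_5G008270), which keeps Rubisco active and has the highest mean FPKM of all kept genes, was at 4457, 7642 and 9928 FPKM as lowest, median and highest cold value, against 9965 to 10141 FPKM at 0 h. This is a log2 fold change of only -0.44 (SE 0.07). The subunits of the chaperonin that folds Rubisco (CsaV3_6G014140 and CsaV3_1G041580) went the other way, with log2 fold changes of 1.87 (SE 0.12) and 1.9 (SE 0.11).

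Pigment enzymes were kept lower in 13 of 50 genes (26%, against 21.9% of all genes) and higher in 6 (12%, against 17.4%). Phytoene desaturase (CsaV3_3G040590), an early step of carotenoid synthesis, averaged 21.9 FPKM at 0 h, 5.55 at 3 h, 3.09 at 12 h and 1.18 FPKM at 24 h. NCED5 (CsaV3_1G032340), which cuts carotenoids toward abscisic acid, was at 1.16, 8.55 and 25.0 FPKM as lowest, median and highest cold value, against 0 to 0.131 FPKM at 0 h. Chlorophyllase-1-like (CsaV3_2G013640), which removes the phytol tail of chlorophyll, was at 5.48 to 13.5 FPKM in the cold, against 0.374 to 0.902 FPKM at 0 h.

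Carbohydrate genes showed a split inside the pathway of raffinose sugars. All 3 galactinol synthase genes, which make the galactose donor of raffinose, were kept higher, and galactinol synthase 2-like (CsaV3_1G015730) was at 21.3, 35.9 and 90 FPKM as lowest, median and highest cold value, against 4.65 to 6.41 FPKM at 0 h. By contrast, 3 of 5 galactinol-sucrose galactosyltransferase genes, of the next step, were kept lower and none higher. Both tested sucrose-phosphate synthase genes, of sucrose synthesis, were kept lower (CsaV3_1G027950, -1.09, and CsaV3_2G011150, -1.48). An inositol-3-phosphate synthase-like gene (CsaV3_UNG190490), which makes the inositol backbone, averaged 2817 FPKM at 0 h, 1057 at 3 h, 793 at 12 h and 681 FPKM at 24 h; a similar copy (CsaV3_4G004810) had a log2 fold change of -1.82, against -1.73 for the first, and the share of reads of each is uncertain. Over all 43 sugar enzymes 9 were kept higher and 9 lower, at 20.9% each, near the 17.4% and 21.9% of all genes. The balance of 18 called higher against 16 lower became 13 against 15 when only genes averaging 5 FPKM or more were tested. Starch genes leaned lower, with 12 of 33 kept lower (36.4%) and 7 higher (21.2%). Inactive beta-amylase 9 (CsaV3_6G005730), a relative of starch-degrading enzymes, was at 29.3, 45.8 and 142 FPKM, against 387 to 416 FPKM at 0 h.

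Protein synthesis and breakdown changed by small steps in many genes. Of 154 cytosolic ribosomal protein genes, 99 were called higher (64.3%, against 35.2% of all genes) and 18 lower (11.7%, against 35.9%). Kept higher were 55 (35.7%, against 17.4% of all genes) and kept lower 9 (5.84%, against 21.9%). None of these kept genes was at least 2-fold changed at every duration, and the median log2 fold change of the list was 0.27. Ribosomal protein L9 (CsaV3_5G001000) was at 309, 343 and 402 FPKM as lowest, median and highest cold value, against 181 to 199 FPKM at 0 h. Ribosome biogenesis genes had 14 of 60 kept higher (23.3%) and 6 lower (10%). Those of plastid and mitochondrial ribosomes had 13 of 72 kept higher (18.1%, near the share of all genes) and 4 lower (5.56%). Plastid ribosomal protein L1 (CsaV3_3G031960) went against its list, at 109 to 238 FPKM in the cold, against 471 to 481 FPKM at 0 h. Of 38 proteasome subunits, 9 were kept higher (23.7%) and 2 lower (5.26%). Translation factors were kept lower in 16 of 66 (24.2%) and higher in 11 (16.7%), both near the shares of all genes. There the elongation factor 1-alpha-like gene (CsaV3_5G025900) was at 142, 181 and 235 FPKM as lowest, median and highest cold value, against 444 to 565 FPKM at 0 h.

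Growth-linked groups were kept lower in shares not far from that of all genes. Of 87 auxin genes 20 were kept lower (23%, against 21.9% of all genes) and 9 higher (10.3%, against 17.4%). Of 15 AUX/IAA repressors tested, 7 were kept lower (46.7%) and 1 higher (6.67%). Auxin transporter-like protein 2 (CsaV3_3G034000), a carrier that takes auxin into cells, was at 22.9 to 25.2 FPKM at 3 h, 4.65 to 5.49 FPKM at 12 h and 3.08 to 3.76 FPKM at 24 h, against 79.3 to 89.4 FPKM at 0 h (log2 fold change -3.45, SE 0.06). Histones and DNA replication genes were called lower in 28 of 55 (50.9%, against 35.9% of all genes) and higher in 9 (16.4%, against 35.2%). Kept lower were 9 (16.4%) and kept higher 3 (5.45%). Histone H1 (CsaV3_6G046960) averaged 142 FPKM at 0 h, 43.7 at 3 h, 30.2 at 12 h and 11.7 FPKM at 24 h. The kept member of this list highest in rank, MCM8 named above, rose instead, with a log2 fold change of 3.92 (SE 0.19). Pectin-modifying enzymes were kept lower in 17 of 61 (27.9%) and higher in 7, and cuticle and wax genes in 8 of 31 (25.8%) and 2. In both lists the kept member highest in rank rose. These were pectin acetylesterase 10 (CsaV3_1G038210) and a non-specific lipid-transfer protein-like gene (CsaV3_7G006350). Their log2 fold changes were 2.49 (SE 0.22) and 1.82 (SE 0.06). The 3-ketoacyl-CoA synthase 6 gene (CsaV3_5G034300), which elongates wax precursors in the epidermis, was at 7.01, 52.3 and 83.6 FPKM as lowest, median and highest cold value, against 127 to 196 FPKM at 0 h. It is also on the list of epidermis markers, of whose 13 tested members 9 were called higher and 3 lower, and the part of the marker shift in it was not tested.

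Xyloglucan enzymes and expansins loosen walls. Of 43 members, 10 were kept higher (23.3%, against 17.4% of all genes) and 5 lower (11.6%, against 21.9%). A xyloglucan endotransglucosylase (CsaV3_1G031460) was at 21.8 to 30.1 FPKM at 3 h, 27.6 to 28.8 FPKM at 12 h and 217 to 233 FPKM at 24 h, against 2.89 to 3.81 FPKM at 0 h. Expansin-A5 (CsaV3_5G038140) and expansin-A4 (CsaV3_6G016770) moved oppositely, with log2 fold changes of 3.42 (SE 0.21) and -2.80 (SE 0.20).

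Hormone genes outside auxin showed single large members within mixed lists. For ethylene, 9 of 26 were kept lower (34.6%, against 21.9% of all genes) and 4 higher (15.4%, against 17.4%). Those kept lower include the receptors ETR1-2 (CsaV3_2G009260, -0.36) and ethylene receptor 2 (CsaV3_3G012390, -1.03), and the signalling protein EIN2 (CsaV3_6G039650, -0.95). Yet a gene of the last step of ethylene synthesis, ACC oxidase 1-like (CsaV3_6G037780), was at 106, 124 and 1061 FPKM as lowest, median and highest cold value, against 16.8 to 19.0 FPKM at 0 h. Jasmonate and oxylipin genes had 9 of 34 kept higher (26.5%) and 7 lower (20.6%). Lipoxygenase 3-1 (CsaV3_7G034390), an early step of jasmonate synthesis, was at 15.4, 21.9 and 58.3 FPKM, against 1.9 to 3.19 FPKM at 0 h. Abscisic acid genes were kept lower in 10 of 53 (18.9%) and higher in 5 (9.43%). Cytokinin and two-component genes had 9 kept lower and 9 higher of 40 (22.5% each). Gibberellin and brassinosteroid genes had 5 lower (22.7%) and 3 higher (13.6%) of 22. The lower shares of these groups were not far from that of all genes.

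Lipid and phosphate genes were kept higher in 20 of 59 (33.9%, against 17.4% of all genes) and lower in 7 (11.9%, against 21.9%). Digalactosyldiacylglycerol synthase 2 (CsaV3_3G009130), which makes a galactolipid that can replace phospholipid, was at 9.05, 10.1 and 17.4 FPKM as lowest, median and highest cold value, against 2.22 to 2.57 FPKM at 0 h. GDPD1 (CsaV3_3G026730), a phosphodiesterase of phospholipid breakdown, was kept higher although it swung widely, averaging 5.34 FPKM at 0 h, 365 at 3 h, 14.4 at 12 h and 166 FPKM at 24 h. In fatty acid synthesis, 9 of 41 were kept higher (22%) and 6 lower (14.6%). There delta(8)-desaturase 2 (CsaV3_6G000930), which acts on sphingolipids, averaged 12.5, 55.9, 77.2 and 110 FPKM at the same times. The balance of called fatty acid genes, 13 higher and 11 lower, turned to 11 and 12 without the 3 h group and to 10 and 11 without 0 h library 1 or 0 h library 3.

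Water, nitrogen and energy genes complete the lists. Of 20 aquaporins 6 were kept lower (30%, against 21.9% of all genes) and 2 higher (10%, against 17.4%). Both kept higher are of the TIP kind, which lies in the vacuole membrane, but so is TIP4-1 (CsaV3_2G030920), which was kept lower. TIP4-1 was at 7.08, 12.9 and 17.5 FPKM as lowest, median and highest cold value, against 47.5 to 85.1 FPKM at 0 h. TIP1-1 (CsaV3_6G040100) was at 1159 to 2612 FPKM in the cold, against 570 to 622 FPKM at 0 h. TIP2-2 (CsaV3_5G004290) averaged 17.8 FPKM at 0 h and 118, 129 and 60.9 FPKM after 3, 12 and 24 h. Nitrogen genes were kept lower in 16 of 59 (27.1%) and higher in 9 (15.3%). Of 32 NRT1/PTR transporters tested, 10 were kept lower (31.2%) and 5 higher (15.6%). The kept nitrogen gene highest in rank, NRT1/PTR FAMILY 2.13-like (CsaV3_5G032220), rose, with a log2 fold change of 2.46 (SE 0.21). Respiration genes were kept higher in 13 of 73 (17.8%, near the share of all genes) and lower in 9 (12.3%). Among those kept higher, alternative oxidase 2 (CsaV3_4G009450), a bypass of the respiratory chain, had 154, 168 and 282 FPKM as lowest, median and highest cold value. At 0 h this gene was at 57.3 to 59.6 FPKM. Protectant genes of proline, polyamines and late embryogenesis were kept higher in 13 of 31 (41.9%) and lower in 2 (6.45%). The list's search words also caught LEAF RUST 10 receptor kinase (CsaV3_1G006880), spotted leaf 11 (CsaV3_6G035860) and a spermine-binding protein (CsaV3_2G003360) among the 13, which are not protectants. Lea5-A-like (CsaV3_4G000870), described as a late embryogenesis abundant protein, was at 5.05, 9.75 and 52.2 FPKM, against 0, 2.36 and 2.04 FPKM at 0 h. Defence genes had 12 of 59 kept higher (20.3%) and 11 lower (18.6%), both near the shares of all genes. Splicing factors had 9 of 55 kept higher (16.4%) and 15 lower (27.3%). Members of these lists include thaumatin-like protein 1 (CsaV3_3G000740, -2.88, SE 0.10) and SC35 (CsaV3_7G006480, -1.12, SE 0.06).

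Genes of types often used to normalise expression were also among the kept genes. A list of 63 genes was found by the words actin, tubulin, ubiquitin and glyceraldehyde-3-phosphate dehydrogenase. That list had 22 kept lower (34.9%, against 21.9% of all genes) and 7 higher (11.1%, against 17.4%). It also caught 17 partner proteins that are not reference genes, such as tubulin-folding cofactors and gamma-tubulin complex components, and these make up 8 of the 22 and 1 of the 7. Ubiquitin-conjugating enzymes were kept lower in 10 of 20 and higher in 1, whereas both polyubiquitin genes were kept higher. Of the partner proteins, the 3 tubulin-folding cofactor C copies on unplaced scaffolds (CsaV3_UNG120970, CsaV3_UNG160200 and CsaV3_UNG223580) had log2 fold changes of -1.29, -1.29 and -1.31, and such copies may share reads. Actin-7 (CsaV3_2G018090) fell by 0.47 on the log2 scale and a tubulin beta chain (CsaV3_1G037170) by 1.48.

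The edge of the rule is narrow. Chaperone dnaJ 49 (CsaV3_6G022320) lay just inside, with its lowest cold and highest 0 h values both at 11 FPKM and a ratio of 1.0005 between them, and so did VAR3 (CsaV3_5G028100), a chloroplast zinc finger protein, with a ratio of 1.0002. Just outside lay genes that a single library kept out. Among described genes called over all cold and of at least 5 FPKM, these were 468 on the higher side and 461 on the lower. Genes outside these limits were not counted. The largest of these were a BTB/POZ and TAZ domain protein (CsaV3_1G009120), at 11.2, 11.2 and 11.3 FPKM at 3 h and 126 to 473 FPKM later, against 8.02, 8.81 and 11.8 FPKM at 0 h, and a 21 kDa protein-like gene (CsaV3_5G028280), at 93.1 to 103 FPKM at 3 h and 1.85 to 8.46 FPKM later, against 97.3 to 106 FPKM at 0 h. Over the kept genes, the nearest values of the groups were apart by a median ratio of 1.27 on the higher side and 1.26 on the lower.

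Genes called over all cold but not kept numbered 5275, with 2939 higher and 2336 lower. Of these, 3737 were called in the same direction at 2 durations, 1303 at 1 duration, 219 at all 3 and 16 at none. The ones called at a single duration were 299 at 3 h, 305 at 12 h and 699 at 24 h. A duration called in the opposite direction was found in 676 of the 5275, so for these the mean over all cold hides a change of sign.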

How the data were processed

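RNA of 12 libraries of leaves was sequenced as cDNA, 3 for each of 0, 3, 12 and 24 h of cold. The submitters' processing notes name cutadapt 1.9 and FastQC, and reads were mapped to a cucumber genome with HISAT2, per the series design text. No source used here gives the counting tool, annotation, build or strand setting, and coordinates are those of the deposited table. The authors deposited an estimated count for each gene and library, in whole numbers. Beside it the authors deposited FPKM, per the file headers, in which 0.0001 stands for each of 61048 counts of 0 and was read as 0.

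A gene entered the fit when 3 or more libraries had 1 FPKM or more, which left 16432 genes with 99.8% of all counts. Calls came from edgeR's quasi-likelihood test (edgeR 4.0.16, R 4.3.3) with TMM scaling, a mean per duration, no block, and all 12 libraries in 1 fit; p-values were adjusted by Benjamini and Hochberg over the tested genes, and calls are two-sided at 0.05. The biological coefficient of variation was 17.2%. Kept genes were found from the ranks of the deposited FPKM. The 50 gene lists, 6 of them cell type markers, are patterns on the deposited descriptions, which 11054 tested genes have, and 3491 genes of the table overlap another. The members and lists were chosen with earlier results of these data known. Genes were ranked by the smallest of the 3 changes in log2(FPKM + 1) among called, kept, described genes of at least 5 FPKM. The 12 largest rises and 12 largest falls were named, and the top kept member of most lists. Also named were the 5 steadiest rises and falls, the genes at the rule's edge and 3 genes that changed sign. Other genes named, such as abundant ones and further list members, were chosen after their values were seen. Top kept members not named elsewhere include serine hydroxymethyltransferase 7-like (CsaV3_4G028640), U3 small nucleolar RNA-associated protein 25 (CsaV3_1G031770) and a proteasome subunit 13 gene (CsaV3_3G001250). Their log2 fold changes were 2.13, -0.61 and -0.70, each against the lean of its list, and the last 2 overlap an opposite-strand gene.

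The fit was also run on simulated data in which only a small share of the genes was changed, unlike the 71.2% called here. That run cannot check the scaling or the calls where so many genes change. Alternatives were other scalings, filters, limma 3.58.1 on log2(FPKM + 1) with pseudocounts of 0.1, 1 and 5, DESeq2 1.42.0, the replicate number as a block, and leaving out each library or duration. Leaving out the 24 h group for the kept genes and for their differences among durations, and leaving out overlapping genes, were added after the data were seen. Figures used matplotlib 3.10.9 (Python 3.11.15).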

Additional observations from a re-analysis of the deposited data

Results flagged for a closer look

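In 1687 of the 16432 tested genes (10.3%), 2 cold durations were called in opposite directions against 0 h, 1300 of them between 3 and 24 h, 768 between 3 and 12 h and 491 between 12 and 24 h. The difference between durations was itself tested for the 3 genes with the largest opposite changes. Chaperone dnaJ 11-like (CsaV3_2G015850) had log2 fold changes of -3.92 at 3 h, -2.13 at 12 h and 2.63 at 24 h, and 12 h differed from 3 h by 1.793. Protein GAST1 (CsaV3_3G042990), of a gibberellin-regulated family, was at 32.6, 41.4 and 37.5 FPKM at 3 h, 0.897 to 1.32 FPKM at 12 h and 0 to 0.596 FPKM at 24 h, against 3.86 to 4.74 FPKM at 0 h, and 12 h differed from 3 h by -4.964 on the log2 scale. A pectinesterase-like gene (CsaV3_7G033930) had log2 fold changes of -2.20, 2.17 and 2.43 at 3, 12 and 24 h, and 12 h differed from 3 h by 4.368. The edgeR adjusted p among durations was 1.37e-07, 3.73e-07 and 1.65e-07 for the 3 genes, which were picked for these opposite changes, so the values only describe them. Of the kept genes, 4960 differed among the 3 cold durations in the F test.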

How the results depend on the processing

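Counts of calls over all cold (11696, with 5792 higher and 5904 lower) moved by over 1.5 times under 1 alternative, a threshold of at least 2-fold, which left 4392 genes, 2351 higher and 2041 lower. Otherwise they ranged from 8649, with genes of a mean of at least 5 FPKM only, to 12106 without a filter; limma gave 11818 and DESeq2 11874. Leaving out each library gave 10672 to 12085 genes, 5268 to 5999 higher and 5355 to 6086 lower. Requiring the nearest values to be 1.5-fold apart left 912 genes kept higher and 992 kept lower; leaving out each library gave 2896 to 3126 and 3633 to 3902, which fewer libraries to satisfy can only raise, and without the 24 h group 3763 and 4269 were kept. Without overlapping genes 2450 and 3117 remained. Kept genes that differed among durations numbered 4615 to 5090 without single libraries and 4011 without the 24 h group, against 4960. Same-numbered libraries did not visibly deviate together, but with 3 libraries per group this cannot show whether the numbers are a pairing. With the replicate block 11550 genes were called, 5703 higher and 5847 lower, and 4869 kept genes differed among durations. The mean over all cold changed sign for the 3 genes with opposite directions: CsaV3_2G015850 at 0.256 without the 3 h group, CsaV3_3G042990 at 0.252 with a pseudocount of 5 and 0.619 without the 24 h group, and CsaV3_7G033930 at -0.007 without the 24 h group. VAR3 (CsaV3_5G028100) lost its call in 8 settings. Called lists whose balance turned were sugar enzymes, fatty acid genes, MYB factors, guard cell markers and translation factors, the last at 25 higher and 27 lower with limma. Depth limits genes with few fragments at 0 h, such as ERF053, whose fold change is loose.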

Other observations

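By the pathway terms of the deposited table, 100 pathways had at least 20 tested members. The share of members kept higher was greatest in antenna proteins of photosynthesis, at 11 of 20 (55.0%), against 17.4% over all tested genes. Next came base excision repair, which repairs single damaged DNA bases, at 13 of 42 (31.0%). Selenocompound metabolism had 9 of 30 (30.0%) and the ribosome 92 of 319 (28.8%). On the lower side, ubiquitin-mediated proteolysis had 54 of 146 members (37%) and the circadian rhythm pathway 28 of 79 (35.4%), against 21.9% over all tested genes. These pathways were picked after their values were seen and carry no test.

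Several large families not described above were divided between both sides. Among 148 F-box proteins, which choose targets for breakdown, 35 were kept lower (23.6%) and 20 higher (13.5%), near the 21.9% and 17.4% of all tested genes, and among 146 genes described as E3 ubiquitin ligases 38 (26%) and 22 (15.1%). U-box proteins, a further kind of ligase, had 16 of 50 kept higher (32%) and 9 lower (18%). Of 309 pentatricopeptide repeat proteins, which process organelle RNA, 48 were kept higher (15.5%) and 51 lower (16.5%), and of 60 genes of protein phosphatase 2C, a family with brakes of abscisic acid signalling, 11 (18.3%) and 18 (30%).

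Kept genes were spread over the genome, with 16.5% to 19.0% of the tested genes of each chromosome kept higher and 20.2% to 24.5% kept lower. The longest runs of neighbouring tested genes on 1 side held 8 genes, 2 runs on chromosome 6, both lower, at 4769005 to 4864841 and 24996413 to 25072906. A run of 5 genes kept higher on chromosome 7 (79336 to 167611) holds 3 RADIALIS-like genes.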
